A study of Homo sapiens with 9 samples.

Results

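Hairpin 3 against MPZL3 was compared with the control vector in OVCA433 cells, a human cancer line established from an ovarian serous adenocarcinoma. The 6 libraries of these conditions, 3 with the control vector and 3 with hairpin 3, were taken by their labels from 9 libraries in all. The other 3 libraries carried hairpin 1 against the same gene and were used to ask which changes were seen with hairpin 3 and not with hairpin 1. In each condition the libraries were lettered A, B and C, and the study describes them as biological replicates. The methods describe lentiviral transduction followed by puromycin selection. They do not say how many integrations each library averages over. The control libraries are labelled WT with an shRNA control vector, which the methods describe as an empty vector for this line. The same methods also refer to the control group of each line as scr, so the content of the vector is not certain. The hairpin libraries are labelled MPZL3 knock-down. Untransduced cells and libraries labelled as a scrambled hairpin in this line were not analysed here. If the vector was empty, the response to expressing any hairpin cannot be told apart from the response to hairpin 3.

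MPZL3 encodes a predicted cell adhesion molecule of the immunoglobulin superfamily, related to myelin protein zero. Epithelial cells hold to each other through E-cadherin junctions, tight junctions and desmosomes, and keep a set of transcription and splicing factors that maintain this state. In epithelial-mesenchymal transition (EMT), transcriptional repressors of the ZEB, SNAIL and TWIST families bind E-box motifs in promoters of epithelial genes, junctions are lost, and genes of vimentin, N-cadherin and the collagen matrix are switched on. Ovarian serous cells often show a mixed state, with PAX8 and keratins beside some mesenchymal genes.

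The site matched by hairpin 3 is shown first, since it is the only designed difference from the control. Read from the MPZL3 transcript ENST00000278949.8 of GENCODE 29, with the bases in capitals lying opposite bases 2 to 8 of the guide strand if the guide starts opposite the last base of the site, it was:
MPZL3 site of hairpin 3: gcagccacacagtATCAATAt
The site lies in the coding sequence on the minus strand of GRCh38. Its first 17 bases are in exon 2, at chr11:118240211-118240227, and its last 4 bases are in exon 3, at chr11:118237257-118237260, so it spans a splice junction. Among all annotated transcripts the 21 bases occurred in those of 1 gene only, in 2 of the 4 transcripts of MPZL3, and their reverse complement occurred in none.

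MPZL3 (ENSG00000160588, chromosome 11, 118226690 to 118252350) was at 15.6, 21.9 and 21.03 CPM (counts scaled to a library of 1e+06) in control libraries A, B and C. It was at 1.94, 0.988 and 1.80 CPM in hairpin 3 libraries A, B and C. The groups did not overlap, and the target was low in all 3 hairpin 3 libraries. The means were 19.5 ± 3.42 and 1.58 ± 0.514 CPM (SD, n = 3 each), a 12.4-fold difference. On the log2 scale MPZL3 fell by 3.62 (SE 0.227), with an edgeR adjusted p-value of 4.7e-08. With hairpin 1 it was at 1.80 to 1.98 CPM, and the difference between the hairpins was not called (log2 -0.25, edgeR adjusted p-value 0.614). Within 500 kb of MPZL3 the genes TMPRSS13, TMPRSS4 and MPZL2 were also called lower, and 341 genes across the genome fell further than MPZL3 by fitted log2 fold change.

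Library totals were 16850854 to 21839324 counts over the 6 libraries. Of 58676 listed genes, 15975 passed the filter on low counts and held 99.889% of the counts. Mitochondrial genes took 2.75% to 4.011% of counts over the 9 libraries. The replicate A libraries stood apart within their groups: log2 CPM correlated across genes at 0.981 to 0.9938 within control and 0.9794 to 0.9938 within hairpin 3, genes not being independent replicates. Several results are therefore also given without the A libraries, a check chosen after seeing the data. The first principal component, with 79.7% of the variance over 9 libraries, separated control (-60.8 to -58.1) from hairpin 3 (23.6 to 29.1). The second, with 10.2%, separated the hairpins, with hairpin 1 between 16.7 and 19.0 and hairpin 3 between -21.5 and -14.9.

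Calls required an adjusted p-value under 0.05 in edgeR's quasi-likelihood test and a change of at least 1 on the log2 scale in either direction. Hairpin 3 changed 2443 of the 15975 tested genes, or 15.3%, of which 1192 (7.46%) were higher and 1251 (7.83%) lower. Of the called genes 82.3% were protein-coding. Without the A libraries 2607 genes were called. The median log2 fold change over all tested genes was -0.0029, a value that the scaling between libraries holds near 0. All 3 hairpin 3 libraries lay above all 3 controls for 3688 genes (23.1%) and below them for 3972 (24.9%), which makes 47.9% without overlap. Lack of overlap is therefore frequent here and is given below only as a description beside the fitted test.

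**Figure D1:**
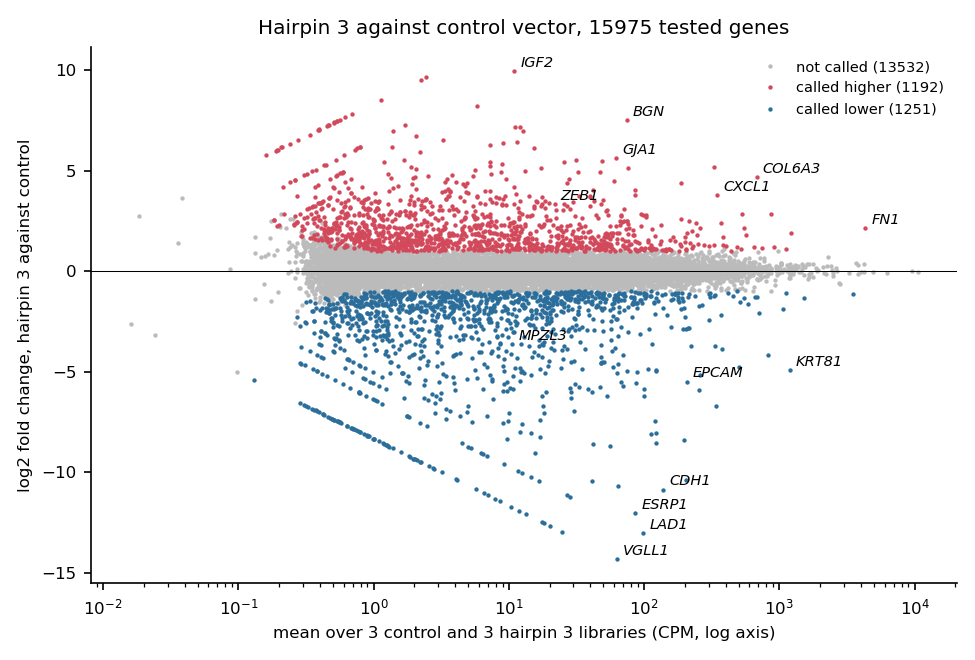
Fitted log2 fold change of hairpin 3 against control vector (y axis) for each of 15975 tested genes against its mean over the 6 libraries in CPM (x axis, log scale), with 1192 genes called higher in red, 1251 called lower in blue and the rest in grey. The straight diagonal rows at low levels are genes at or near 0 counts in 1 group, whose fitted values depend on the prior count, and the falls reach further from 0 than the rises.

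Epithelial genes were lost with hairpin 3, many of them down to a handful of reads. Of 19 tested epithelial transcription and splicing factors, 16 (84.2%) were called lower and 0 higher, around a median of -4.47 on the log2 scale. The list also holds the protease gene ST14, described below. CDH1, which encodes E-cadherin, was at 281, 275 and 270.0 CPM in control libraries A, B and C. It was at 0.353, 0 and 0.0921 CPM in hairpin 3 libraries A, B and C. Each hairpin 3 library thus held under 10 reads of CDH1, and CDH1 had a fitted log2 fold change of -10.87. EPCAM, an epithelial adhesion molecule, was at 412, 420.1 and 376 CPM in control and at 9.95, 9.44 and 7.41 CPM with hairpin 3. It stayed measurable in every hairpin 3 library but far below every control (log2 -5.50, edgeR adjusted p-value 7.62e-11).

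The factors that maintain epithelial identity fell with them. ESRP1, which directs epithelial splicing, was at 184, 172 and 161 CPM in control libraries A, B and C. In the 3 hairpin 3 libraries together it held 2 reads against 10616 in control, a ratio of 4901 whose 95% counting interval starts at 1357. GRHL2, a grainyhead factor that activates CDH1, was at 100.3, 108 and 127 CPM in control and 0.177, 0.11 and 0.46 CPM with hairpin 3 (log2 -8.70, edgeR adjusted p-value 6.78e-10). All 3 hairpin 3 libraries were below 1 CPM for both genes. EHF and ELF3, both epithelial ETS factors, were called lower, ELF3 by a log2 fold change of -5.88 from a mean of 75.3 CPM. OVOL1, a repressor of mesenchymal genes, was at 0 counts in all 3 hairpin 3 libraries, at least 81.8-fold lower than control. KLF5, FOXA2 and TFAP2A, the members of the list that were not called, had log2 fold changes of -0.31, -0.09 and 0.09.

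Of 27 tested genes of adherens, tight and gap junctions, 20 were called lower and 1 higher, around a median of -3.24 on the log2 scale. The tight junction genes CLDN4, MARVELD3 and CRB3 were called lower with log2 fold changes of -5.92, -7.59 and -7.45. CLDN4 was at 429, 561 and 510 CPM in control libraries A, B and C and at 7.002, 8.18 and 9.53 CPM with hairpin 3. GJB2, a connexin, was at 0 counts in all hairpin 3 libraries from a mean of 2.57 CPM. GJA1, the connexin of fibroblasts and heart muscle, was the member called higher, from 2.15 to 2.81 CPM in control to 118 to 131 CPM with hairpin 3. The cytoplasmic partners of E-cadherin did not follow it: CTNNA1 had a log2 fold change of -0.05 and CTNNB1 of 0.29, and neither was called.

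Desmosome and keratin genes fell less far. Of 17 tested, 12 were called lower and 0 higher, around a median of -1.56 on the log2 scale. KRT19, a keratin of simple epithelium, was at 1162, 1569 and 1919 CPM in control libraries A, B and C and at 94.5, 72.4 and 94.2 CPM with hairpin 3. Every hairpin 3 library held a small fraction of the lowest control value (log2 -4.15). KRT8 and KRT18, which pair with each other in simple epithelium, were called lower with log2 fold changes of -1.16 and -1.36 and remained at means of 2148 and 846 CPM. KRT7 was at 3430 ± 810 CPM in control and 2215 ± 359 with hairpin 3 and was not called (log2 -0.63). JUP, which links both desmosomes and adherens junctions, was called lower by a log2 fold change of -2.89.

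**Figure D2:**
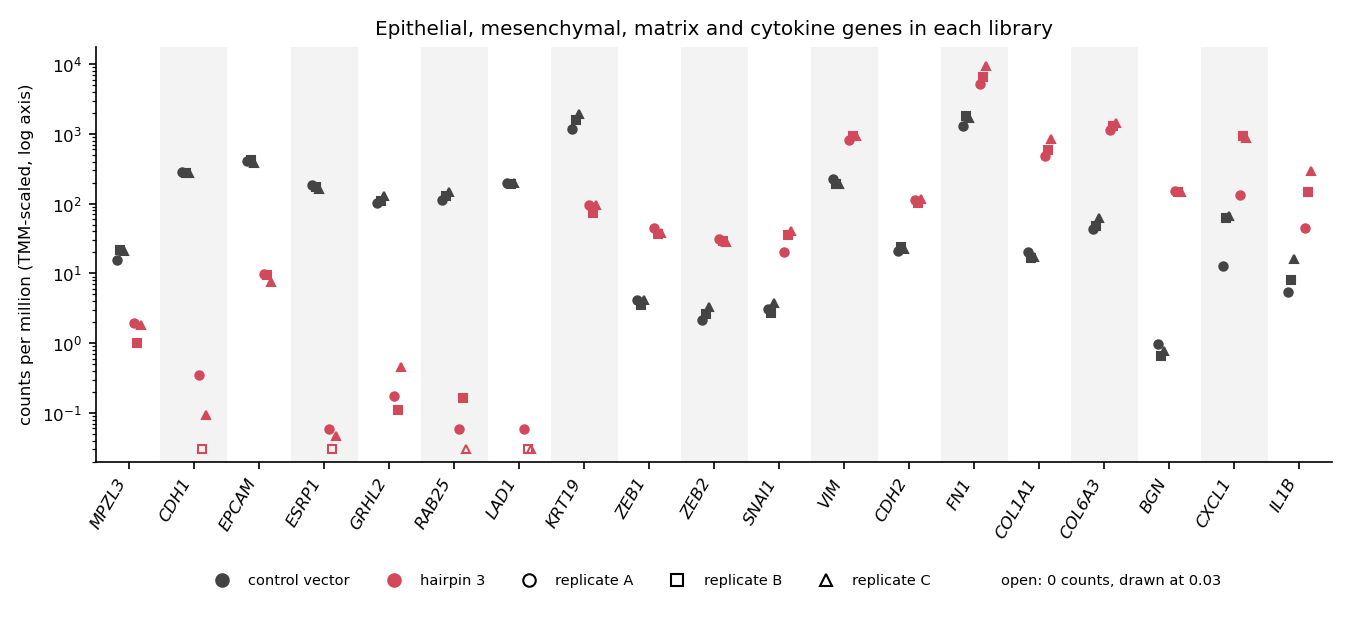
Level of 19 genes in each library in CPM (y axis, log scale), with control libraries in grey, hairpin 3 libraries in red, the replicate letter by shape and libraries at 0 counts drawn open at the bottom. CDH1, ESRP1, GRHL2, RAB25 and LAD1 sit above 99 CPM in every control and below 1 CPM in every hairpin 3 library, while the transcription factors ZEB1, ZEB2 and SNAI1 and the matrix genes sit higher with hairpin 3.

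A small set of genes fell to the floor of detection. Of 10739 tested genes that reached 100 counts in each of the controls, 45 were at no more than 3 counts in each hairpin 3 library, 41 of them protein-coding. Of the 45, 15 had 0 counts in all 3 hairpin 3 libraries and the others had at most 6 counts in total. In the libraries of hairpin 1, 34 of the 45 were at this floor as well, but both comparisons share the same control libraries. VGLL1, a cofactor of TEAD transcription factors, was at 116, 132 and 130 CPM in control and at 0 counts in every hairpin 3 library, at least 788-fold lower. LAD1, a protein of the epithelial anchoring filaments, held 12093 reads in control and 1 with hairpin 3. SYK, a tyrosine kinase, MUC20, a membrane mucin, BSPRY and the MYC family member MYCN were at 0 counts with hairpin 3, at least 310-fold, 253-fold, 228-fold and 222-fold lower. The converse was rare: IGF2, a growth factor, and CD248, a glycoprotein of pericytes and fibroblasts, were at the floor in control with at least 100 counts in every hairpin 3 library. IGF2 was at 0, 0.0498 and 0 CPM in control libraries A, B and C and at 9.77, 25.7 and 29.8 CPM with hairpin 3, lowest in replicate A. The difference rests on 1 control read, and the 95% counting interval of the ratio starts at 249.

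The sequence just before the start of 4 silenced genes is shown because the repressors that rose bind the E-box CAGGTG, whose other strand reads CACCTG. The windows are the 120 bases before the start in RefSeq on GRCh38.p14, read 5′ to 3′ on the strand of the gene, with each E-box in capitals. The genes were chosen for having such a motif, after the windows were read.
KDF1: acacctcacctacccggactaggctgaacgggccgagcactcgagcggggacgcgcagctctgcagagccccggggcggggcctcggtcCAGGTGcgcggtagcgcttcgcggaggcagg
RAB25: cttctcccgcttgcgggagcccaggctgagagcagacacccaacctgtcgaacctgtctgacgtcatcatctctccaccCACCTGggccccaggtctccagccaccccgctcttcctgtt
LAD1: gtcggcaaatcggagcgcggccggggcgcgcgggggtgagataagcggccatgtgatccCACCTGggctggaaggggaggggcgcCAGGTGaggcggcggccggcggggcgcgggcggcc
TMEM30B: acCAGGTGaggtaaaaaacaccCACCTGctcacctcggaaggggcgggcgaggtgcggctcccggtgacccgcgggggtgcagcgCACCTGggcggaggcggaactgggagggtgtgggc
These windows are chr1:26960469-26960588 for KDF1, chr1:156061040-156061159 for RAB25, chr1:201399325-201399444 for LAD1 and chr14:61281339-61281458 for TMEM30B. The first base of the motif stood at -31 in KDF1, at -41 in RAB25, at -61 and -35 in LAD1 and at -118, -98 and -35 in TMEM30B, counted from the start that RefSeq gives, which for LAD1, KDF1 and TMEM30B is not the end of the gene in GENCODE 29. Over the 250 bases before the start, 17.5% of all 35116 windows in the reference table held the motif on either strand. Counted by gene, 2229 of the 10573 tested genes with a window (21.1%) held it in at least 1 window. Only 26 of the 45 silenced genes matched a window, 14 with the motif in at least 1 window of 250 bases and 12 without. With so many genes unmatched, a comparison of shares between sets is void. A match of letters is not a binding site.

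KDF1, an epithelial differentiation factor, was at 24.8, 28.4 and 27.3 CPM in control and at 0 counts with hairpin 3, at least 168-fold lower. RAB25, an epithelial regulator of vesicle recycling, held 7918 reads in control and 4 with hairpin 3. TMEM30B, a partner of lipid-transporting ATPases, was at 9.93 to 12.2 CPM in control and at 0 counts with hairpin 3, at least 71.0-fold lower.

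EMT transcription factors moved unevenly. Of 13 tested, 6 were called higher and 1 lower, with a median log2 fold change of 0.11, which was 0.0555 without control C, 0.176 without hairpin 3 C, 0.18 without control A and 0.22 without the A libraries. ZEB1 was at 4.17, 3.48 and 4.11 CPM in control libraries A, B and C and at 44.0, 37.1 and 37.5 CPM with hairpin 3 (log2 3.33, edgeR adjusted p-value 8.57e-10). ZEB2 was at 2.13, 2.59 and 3.35 CPM in control and 31.5, 28.7 and 28.3 CPM with hairpin 3, and SNAI1 at 3.05, 2.69 and 3.78 CPM in control and 20.3, 35.6 and 40.0 CPM with hairpin 3. All 3 repressors were about 10-fold higher in hairpin 3 libraries, and SNAI1 was lowest there in replicate A. TCF4, an E-box binding partner of TWIST proteins, TWIST2 and TWIST1 were called higher with log2 fold changes of 2.16, 1.91 and 1.34. SNAI2 (log2 0.08), TCF3 (0.11), SOX4 (-0.31) and SOX9 (-0.35) were not called. HMGA2, a chromatin protein often raised in EMT, was called lower, from 188 to 214 CPM in control to 72.6 to 101 CPM with hairpin 3 (log2 -1.15).

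Of 18 mesenchymal cytoskeleton and adhesion genes, 8 were called higher and 0 lower, with a median log2 fold change of 1.03. VIM, the vimentin gene, was at 225, 192 and 192 CPM in control libraries A, B and C and at 817, 917 and 943 CPM with hairpin 3 (log2 2.14, SE 0.11, edgeR adjusted p-value 7.45e-09). CDH2, which encodes N-cadherin, was at 20.8, 23.99 and 22.7 CPM in control and 114, 102 and 116 CPM with hairpin 3 (log2 2.30). For both genes the lowest hairpin 3 library stood above the highest control. CNN1, a smooth muscle calponin, and PDGFRB, the receptor of PDGF-B, rose from under 1 CPM by log2 fold changes of 5.93 and 4.92. AXL and TPM1, the most abundant members, had log2 fold changes of 0.36 and 0.45 and were not called.

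The extracellular matrix rose on a larger scale. Of 18 tested collagen genes, 14 were called higher and 1 lower, with a median log2 fold change of 1.96. COL6A3, a chain of microfibrillar collagen, was at 43.5, 48.5 and 62.7 CPM in control libraries A, B and C and at 1149, 1315 and 1451 CPM with hairpin 3. COL1A1, the main chain of fibrillar collagen I, was at 20.1, 16.7 and 16.9 CPM in control and 484, 593 and 847 CPM with hairpin 3. No hairpin 3 library came near the controls for either gene, and the log2 fold changes were 4.66 and 5.16. COL1A2 and COL3A1, the chains usually expressed with COL1A1 in fibroblasts, were also called higher but reached means of only 0.869 and 1.03 CPM. Each held 1 read in control, against 49 and 57 reads with hairpin 3. The 95% counting intervals of these ratios start at 9.09 and 10.6. COL17A1, a collagen of the epithelial anchoring plaque, was the member called lower (log2 -1.40).

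Matrix glycoproteins and proteoglycans gave 16 genes called higher and 0 lower of 23, with a median log2 fold change of 1.87. BGN, a collagen-binding proteoglycan, was at 0.969, 0.647 and 0.765 CPM in control and at 154, 144 and 144 CPM with hairpin 3 (log2 7.53). FN1, or fibronectin, was at 1297, 1807 and 1676 CPM in control and 5214, 6595 and 9331 CPM with hairpin 3, where it was among the most abundant messages. Both groups were well apart for BGN and FN1, and the FN1 values spread most within hairpin 3. FBN1, a microfibril protein, and VCAN, a large proteoglycan, were called higher by log2 fold changes of 5.13 and 4.48. THBS1, the most abundant member by the mean over the 6 libraries, was at 5031 ± 188 CPM in control and 4871 ± 166 with hairpin 3 (SD, n = 3 each) and was not called.

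Among 24 matrix proteases, inhibitors and crosslinkers, 7 were called higher and 4 lower, with a median log2 fold change of 0.61. MMP14, a membrane collagenase, LOX, a collagen crosslinker, and MMP2 were called higher with log2 fold changes of 2.49, 2.49 and 1.97. TIMP3, an inhibitor of metalloproteases, PLAT, which activates plasminogen, and MMP7, an epithelial matrilysin, were called lower with log2 fold changes of -2.31, -2.78 and -4.23.

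Membrane serine proteases and their inhibitors were the list with the highest share of calls among the 31 lists. All 14 tested members were called lower, with a median log2 fold change of -6.30, or -5.86 with the 2 genes at 0 counts set to their bound. ST14, or matriptase, was at 384, 408 and 427 CPM in control libraries A, B and C and at 0.53, 0.165 and 0.23 CPM with hairpin 3 (log2 -10.38). KLK5, a kallikrein, was at 543, 708 and 753 CPM in control and 4.06, 6.20 and 8.47 CPM with hairpin 3 (log2 -6.72). TMPRSS4 was at 0 counts with hairpin 3, at least 108-fold lower. SPINT1 and SPINT2, which inhibit matriptase, were called lower by log2 fold changes of -5.86 and -2.43.

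Mucins and genes of the ovarian serous lineage split. Of 11 tested, 6 were called lower and 2 higher, around a median of -1.88 on the log2 scale. MUC4 held 5079 reads in control and 3 with hairpin 3, and MUC16, which encodes the CA125 antigen, was at 2.09 to 4.11 CPM in control and at 0 counts with hairpin 3. WFDC2, the HE4 antigen of serous tumours, fell from a mean of 104.6 to 1.39 CPM. PAX8, the lineage factor of Mullerian epithelium, went the other way, from 115, 93.4 and 82.3 CPM in control to 189, 203 and 230 CPM with hairpin 3 (log2 1.10). Its groups did not overlap, but the change was small and the call was lost without control C (log2 0.988) or with the median of its 50 neighbours removed (0.978). MSLN, or mesothelin, was also called higher (log2 1.12), a call lost without control A (0.976) or hairpin 3 C (0.984).

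Marker genes of cell types were summed in each library as a check of the label. The 6 epithelial markers summed to 11290 to 14150 CPM in control and 5062 to 5645 CPM with hairpin 3, with 0 markers at the floor of 3 counts in either group. Keratins carried nearly all of the sum with hairpin 3, where CDH1 was at 0.353, 0 and 0.0921 CPM in A, B and C. The 6 ovarian serous markers summed to 268 to 305 CPM in control and 330 to 441 CPM with hairpin 3. They did not move together: PAX8, MSLN and SOX17 were higher, WFDC2 and MUC16 were lower, and WT1 was at 0 counts in every library. The 8 fibroblast markers summed to 2.29 to 2.96 CPM in control and 19.0 to 24.5 CPM with hairpin 3, 5 and 2 of them being at the floor. The 6 leukocyte markers summed to at most 1.35 CPM in any of these libraries, with 4 at the floor in both groups. The 6 mesothelial markers summed to 92.8 to 116 CPM in control and 21.3 to 39.2 CPM with hairpin 3, the 6 endothelial markers to 40.6 to 61.4 and 53.3 to 74.1, the 5 neural crest markers to 11.4 to 11.9 and 3.88 to 5.11, and the 5 hepatocyte markers to 88.4 to 130 and 31.8 to 58.4 CPM. Single genes carried some of these sums: PDGFRB most of the fibroblast sum with hairpin 3, EGFL7 most of the endothelial sum, and 1 marker nearly all of the hepatocyte sum. In these bulk libraries, fewer cells of a type and less RNA per cell cannot be told apart.

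**Figure D3:**
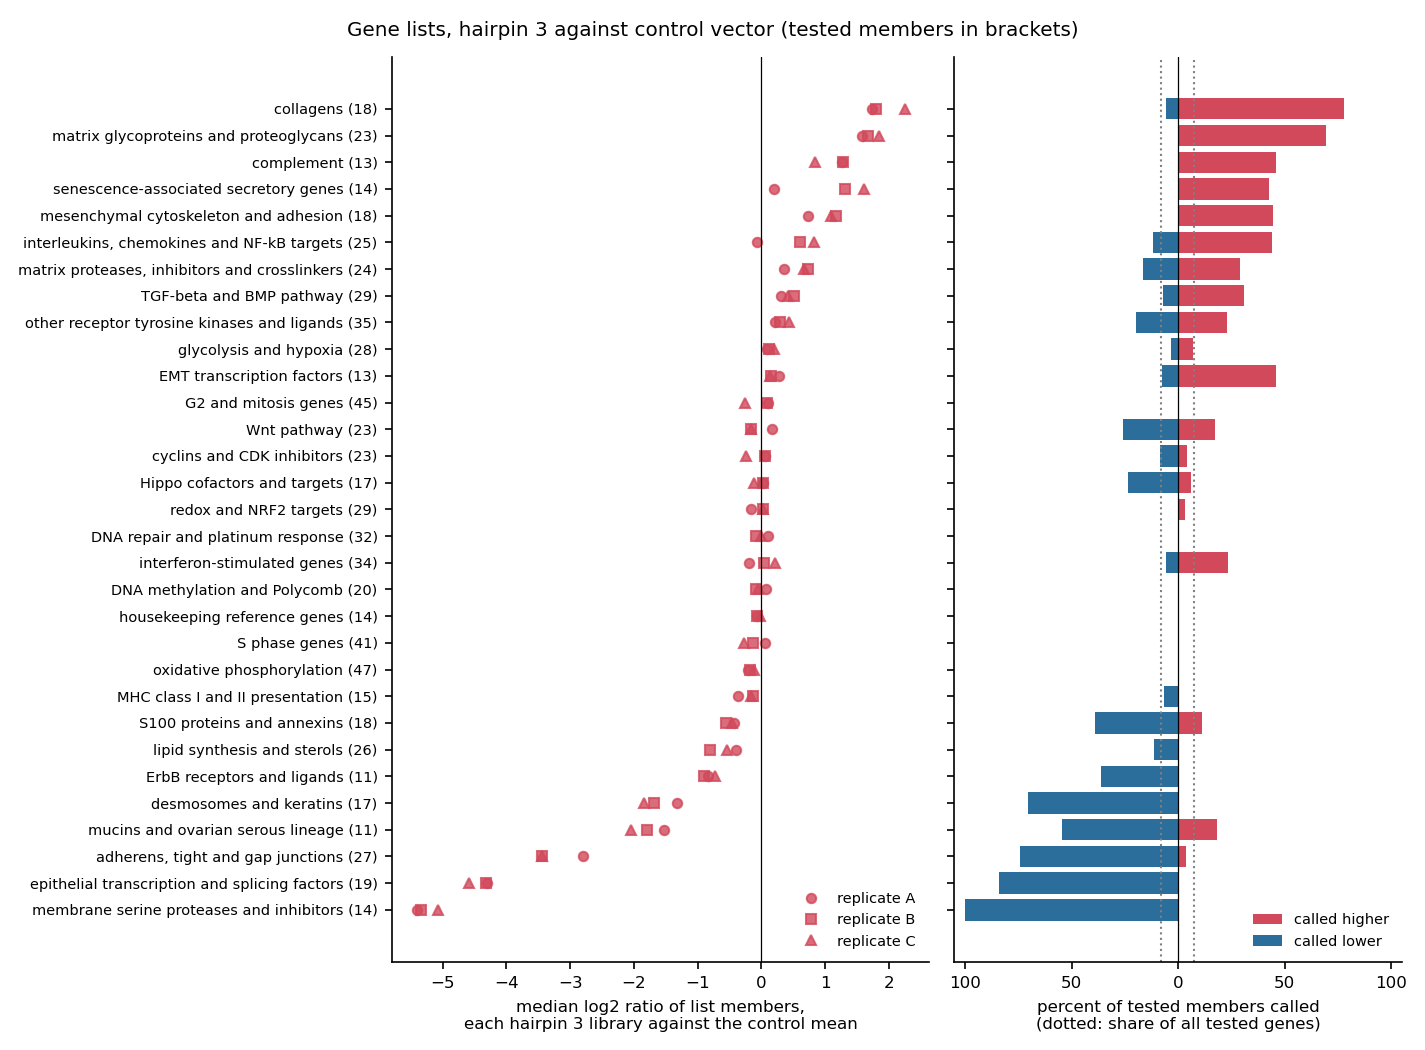
Left: the median log2 ratio of each hairpin 3 library to the control mean over the tested members of 31 gene lists, with the replicate letter by shape. Right: the percent of tested members called higher in red and lower in blue, with dotted lines at the 7.46% and 7.83% of all tested genes called in each direction. Collagens lead the rises with 14 of 18 members and membrane serine proteases the falls with 14 of 14, and replicate A lies apart from B and C in the interleukin and senescence-associated lists.

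Several cytokine genes rose, with values that depended on the replicate letter. Of 25 tested interleukins, chemokines and NF-kB targets, 11 were called higher and 3 lower, with a median log2 fold change of 0.66. Within single hairpin 3 libraries the median of the list was -0.07 in A, 0.60 in B and 0.82 in C. Without the A libraries the fitted median was 0.777. CXCL1, a neutrophil chemokine, was at 12.6, 62.1 and 66.9 CPM in control libraries A, B and C and at 132, 933 and 883 CPM with hairpin 3 (log2 3.78, SE 0.737). IL1B was at 5.375, 7.96 and 16.3 CPM in control and at 44.8, 148 and 295 CPM with hairpin 3 (log2 4.04). Replicate A was the lowest of its group in both conditions for both genes, and the lowest hairpin 3 library still exceeded the highest control. IL1A, the other interleukin-1, was at 5.57, 7.27 and 9.89 CPM in control and 37.4, 72.5 and 106 CPM with hairpin 3 (log2 3.25, edgeR adjusted p-value 1.57e-05). CXCL8, CXCL2, CXCL3 and CSF1, which recruit neutrophils or macrophages, were called higher by log2 fold changes of 2.98, 3.49, 3.97 and 3.79, with the caution that CXCL1, CXCL2 and CXCL3 are close paralogs. IL1RN, the antagonist of interleukin-1, was called lower (log2 -3.27), as was the chemokine gene CXCL16 (-4.59).

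IL6 was low in control and with hairpin 3. It was at 1.21, 1.69 and 2.34 CPM in control libraries A, B and C and at 1.29, 5.98 and 7.64 CPM with hairpin 3, where replicate A stayed at the control level. The log2 fold change of 1.53 was not called (edgeR adjusted p-value 0.1003). With the letter as a block it was called (log2 1.43, edgeR adjusted p-value 0.00188). It was also called without hairpin 3 A (1.96), without hairpin 1 A (1.52) and without all A libraries (1.77). The same held with only the control and hairpin 3 libraries (1.53) and with no filter (1.53), so the missing call depends on the processing. With hairpin 1 the gene was at 5.65, 35.6 and 21.1 CPM. The direct difference between the hairpins was called (log2 -2.04, edgeR adjusted p-value 0.0352) but the call was lost in 9 of 21 alternatives. Among these were the DESeq2 Wald test (adjusted p-value 0.0694), only the libraries of both hairpins, removal of the neighbours' median, and leaving out control B, hairpin 1 B (log2 -1.41), hairpin 1 C, hairpin 3 A or hairpin 3 B, and the edgeR adjusted p-value was 0.639 with the fold threshold inside the test. Of 14 senescence-associated secretory genes, 6 were called higher and 0 lower, with a median log2 fold change of 1.08 and library medians of 0.19 in A, 1.31 in B and 1.61 in C. Without the A libraries the fitted median of this list was 1.25. LMNB1, the lamin lost in senescence, was at 217, 164 and 166 CPM in control and 181, 168 and 140 CPM with hairpin 3, which overlap, and it was not called (log2 -0.17, edgeR adjusted p-value 0.422).

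Complement and interferon genes gave partial responses. Of 13 complement genes, 6 were called higher and 0 lower, around a median of 1.15 on the log2 scale. This median was 0.677 without control B, 1.74 without control A and 1.68 without the A libraries. C3 was at 48.9, 150 and 155 CPM in control and 331, 755 and 770 CPM with hairpin 3 (log2 2.39), low in replicate A of both groups. C1S, a protease of the classical pathway, rose from under 1 CPM to 19.9, 36.6 and 34.5 CPM (log2 6.10), and C4BPB by a log2 fold change of 5.42. Of 34 interferon-stimulated genes, 8 were called higher and 2 lower around a median of -0.07 (0.0936 without control B and 0.123 without hairpin 3 A), with IFI27, IFI44L and OASL higher (log2 2.76, 2.45 and 2.42) and the transcription factor IRF1 lower (-1.73). Of 15 genes of antigen presentation by MHC, 0 were called higher and 1 lower, CD74, the invariant chain (log2 -1.23). That is 6.67% called, below the 15.3% of all tested genes. B2M was at 430 ± 73.7 CPM in control and 440 ± 97.3 with hairpin 3.

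Among 29 TGF-beta and BMP genes, 9 were called higher and 2 lower, with a median log2 fold change of 0.48. The activin subunit INHBA was called higher, from 8.67 to 17.6 CPM in control to 52.0 to 134 CPM with hairpin 3 (log2 2.80), while the other subunit INHBB held 1473 reads in control and 5 with hairpin 3. ID3, SMAD6 and SMAD7, which respond to this pathway, were called higher by log2 fold changes of 1.78, 1.72 and 1.13. The calls of ID3 and SMAD7 were lost with the DESeq2 Wald test (adjusted p-values 0.068 and 0.0603) and without control B, hairpin 3 B or hairpin 3 C, and that of SMAD7 also without control A (log2 0.906). TGFB1 was at the threshold (log2 1.00) and its call was lost under several alternatives, for example at 0.92 without control A. LTBP1, which holds latent TGF-beta in the matrix, was called lower (log2 -4.23). Of 23 Wnt genes, 4 were called higher and 6 lower: WNT10A and WNT7A held 1909 and 1103 reads in control and 3 and 5 with hairpin 3, WNT7B fell by 1.60 on the log2 scale, and the target AXIN2 was called higher (log2 2.23).

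Of 11 ErbB receptors and ligands, 4 were called lower and 0 higher, around a median of -0.86 on the log2 scale. They were the ligands HBEGF, AREG and NRG1 (log2 -1.77, -1.52 and -1.02) and the receptor ERBB3 (-1.38). NRG1 lost its call without control C (-0.994), hairpin 3 B (-0.95) or hairpin 3 C (-0.903). EGFR (0.41) and ERBB2 (-0.86) were not called. Of 35 other receptor tyrosine kinases and ligands, 8 were called higher and 7 lower. FGFR2, the epithelial FGF receptor, fell from 92.3 to 101 CPM in control to 3.22 to 4.94 CPM with hairpin 3 (log2 -4.52), and FGFR1, the mesenchymal one, was called higher (1.69). FGF2 went from 85.7 to 104 CPM in control to 387 to 449 CPM with hairpin 3 (log2 2.12), and FGF18 rose by a log2 fold change of 3.97. Of 17 Hippo cofactors and targets, 1 was called higher and 4 lower, with CTGF higher (log2 1.87) and ANKRD1 lower (-1.34) although both are YAP targets. CYR61 was not called (0.29).

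Proliferation genes were near control. Of 41 S phase and 45 G2 and mitosis genes, 0 were called by edgeR or by the DESeq2 Wald test. An unadjusted p-value under 0.05 was frequent: at least 5536 of all 15975 tested genes reached it, the number called with no fold threshold. At that limit 2 S phase genes were higher and 5 lower, and 5 G2 and mitosis genes were higher and 2 lower. The medians were -0.12 and -0.0006 on the log2 scale, and with 1 library left out they were -0.236 (without hairpin 3 A) to 0.000554 (without control A) and -0.0763 (without hairpin 3 A) to 0.107 (without hairpin 3 C). PCNA was at 378 ± 33.8 CPM in control and 314 ± 29.6 with hairpin 3, and MKI67 at 464 ± 103 and 484 ± 121 (SD, n = 3 each). Without the A libraries 1 S phase gene was called lower. In the list of cyclins and CDK inhibitors, 13% of 23 genes were called, below the 15.3% of all tested genes. CDKN1C, an inhibitor expressed in quiescent cells, was called higher (log2 2.27). The members called lower, MYCN and MYCL, are MYC family genes and neither cyclins nor CDK inhibitors. CCND1, or cyclin D1, was at 1128, 1184 and 1157 CPM in control and 654, 559 and 537 CPM with hairpin 3. All its hairpin 3 libraries were below control, and its change of -0.99 on the log2 scale (edgeR adjusted p-value 0.000152) fell just short of the fold limit. Without hairpin 3 A (-1.08) or control A (-1.005) it was called. With the median of its 50 neighbours on chromosome 11 removed (-0.393), the change was -0.594.

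The lists of oxidative phosphorylation, DNA methylation and Polycomb, DNA repair and platinum response, and housekeeping genes had 0 calls by edgeR and by the DESeq2 Wald test. Among the 47 oxidative phosphorylation genes, 4 were higher and 19 lower at an unadjusted p-value under 0.05, with a median of -0.19. The corresponding counts were 3 and 2 of 20 for DNA methylation and Polycomb, 5 and 2 of 32 for DNA repair and platinum response, and 1 and 4 of 14 for housekeeping genes. At least 5536 of all 15975 tested genes reached that unadjusted limit. Without the A libraries 1 gene of DNA methylation and Polycomb was called higher. Of 28 glycolysis and hypoxia genes, 10.7% were called, below the 15.3% of all tested genes. NDRG1 and CA12 were called higher, and EGLN3, an oxygen-sensing hydroxylase with 1189 reads in control and 3 with hairpin 3, was called lower. Of 18 S100 proteins and annexins, 7 were called lower and 2 higher, with S100A14 lower (log2 -6.70) and ANXA6 higher, from 84.4 to 99.2 CPM in control to 357 to 369 CPM with hairpin 3.

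The largest rises among protein-coding genes with a mean over the 6 libraries of at least 10 CPM, beside IGF2, BGN, C1S and GJA1, were in genes of unrelated roles. BEX1, a neural adaptor, was at 0.291, 0.0498 and 0.0956 CPM in control and 19.1, 20.4 and 26.7 CPM with hairpin 3 (log2 7.19). RBFOX3, a neuronal splicing factor, rose by a log2 fold change of 7.15, SIRPB1, a myeloid receptor, by 6.98, and CP, or ceruloplasmin, by 6.42. The control libraries of all 4 were below 1 CPM, so the size of each fold rests on few reads.

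Hairpin 3 was then compared with hairpin 1 in the same model, to find genes moved by hairpin 3 and not by hairpin 1. Hairpin 1 changed 2605 genes against control (16.3%), and both comparisons share the 3 control libraries. The direct comparison called 628 genes (3.93%), 354 higher (2.22%) and 274 lower (1.72%) with hairpin 3. Of the 2443 genes called with hairpin 3, 1886 were called in the same direction with hairpin 1, and 527 passed the thresholds with hairpin 3 and not with hairpin 1. For 371 of those 527 the direct difference was not called, so they are not shown to differ between the hairpins. The remaining 156 genes, referred to as the set apart from hairpin 1, (0.977% of tested) were called with hairpin 3, not with hairpin 1, and in the same direction in the direct comparison, 88 higher (0.551%) and 68 lower (0.426%). Of the 156, 124 were protein-coding. These genes were chosen by their values in the contrasts, so the levels below are a description. Not called with hairpin 1 does not mean unchanged: 13 of the 68 lower and 4 of the 88 higher genes moved in the same direction with hairpin 1 at an edgeR adjusted p-value under 0.05 and missed the fold limit, IL11, LIPG, PODXL2 and C9orf64 among them. The 371 genes without a called difference outnumber them, and of the 628 direct calls 179 belonged to genes called against control with hairpin 1 and not with hairpin 3.

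Of the 88 genes of the set that were higher with hairpin 3, 23 had a mean over 10 times that of control and 8 reached 10 CPM. PTGIS, or prostacyclin synthase, was at 0.533, 0.747 and 2.63 CPM in control libraries A, B and C and at 49.2, 58.8 and 75.8 CPM with hairpin 3. With hairpin 1 it was at 1.64, 3.41 and 2.49 CPM, close to control (log2 difference between the hairpins 4.61). ALDH1A1, a retinaldehyde dehydrogenase, was at 2.71 to 4.25 CPM in control, 15.7 to 43.6 CPM with hairpin 3 and 1.16 to 4.07 CPM with hairpin 1. IFI27 was at 3.01 to 4.26 CPM in control, 14.7 to 32.3 CPM with hairpin 3 and 2.01 to 6.09 CPM with hairpin 1. These 3 genes had no hairpin 3 library within the range of either other group.

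The growth factor FGF5 was at 18.6, 23.9 and 20.6 CPM in control, at 57.6, 70.7 and 62.0 CPM with hairpin 3 and at 18.2, 11.1 and 22.3 CPM with hairpin 1. CYLD, a deubiquitinase that restrains NF-kB signalling, was at 28.5 to 30.4 CPM in control, 61.3 to 66.9 CPM with hairpin 3 and 24.1 to 27.1 CPM with hairpin 1. The spread of CYLD within each group was small against the gap (log2 1.11 against control and 1.31 against hairpin 1). IL11, an interleukin of the IL6 family, was at 4.48 to 5.62 CPM in control, 17.8 to 20.1 CPM with hairpin 3 and 5.80 to 10.3 CPM with hairpin 1. RYR2, a calcium release channel, and CSDC2, an RNA-binding protein, had differences between the hairpins of 2.32 and 1.49 on the log2 scale. Below 10 CPM, POSTN, or periostin, and MMP1, an interstitial collagenase, belonged to the set as well: POSTN was at 3.18 to 4.53 CPM with hairpin 3 and at most 0.374 CPM in the other libraries, and MMP1 at 0.706, 0.878 and 4.19 CPM with hairpin 3 and at most 0.287 CPM in the others.

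Of the 68 genes of the set that were lower with hairpin 3, 15 were below 10% of control and 20 had a control mean of at least 10 CPM. XYLT1, which starts glycosaminoglycan chains on proteoglycans, was at 16.7, 16.02 and 21.03 CPM in control libraries A, B and C and at 0.588, 0.384 and 0.138 CPM with hairpin 3. With hairpin 1 it was at 14.3, 14.2 and 14.7 CPM, far above the libraries of hairpin 3 (log2 difference -5.32). PWP2, a ribosome assembly factor, was at 11.2 to 12.9 CPM in control, 0.506 to 1.18 CPM with hairpin 3 and 9.72 to 11.8 CPM with hairpin 1, but it has a near-identical copy in the genome and its value is uncertain. PCSK1N, an inhibitor of a prohormone convertase, was at 11.9 to 18.1 CPM in control, 1.12 to 1.48 CPM with hairpin 3 and 10.05 to 15.01 CPM with hairpin 1. CNTN1, a neural adhesion molecule, was at 10.25 to 13.1 CPM in control, 1.197 to 2.001 CPM with hairpin 3 and 18.7 to 22.9 CPM with hairpin 1.

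PODXL2, a sialomucin, was at 72.6, 95.6 and 98.3 CPM in control, at 23.0, 24.3 and 22.7 CPM with hairpin 3 and at 70.5, 62.5 and 68.5 CPM with hairpin 1. LIPG, an endothelial lipase, and PLXDC2 had differences between the hairpins of -1.95 and -2.13 on the log2 scale. PLXDC2 was also higher than control with hairpin 1, and its call against control was lost without control C (log2 -0.984). C9orf64 was at 4.02 to 5.07 CPM in control, at 0 counts in all hairpin 3 libraries and at 2.06 to 2.60 CPM with hairpin 1. EPB41L4A was at 4.58 to 4.83 CPM in control, 0.0588 to 0.165 CPM with hairpin 3 and 4.42 to 6.08 CPM with hairpin 1, and its antisense neighbour EPB41L4A-AS2 was at 0 counts with hairpin 3. These last genes were chosen after their values were seen, and without strand the reads of EPB41L4A and its neighbour cannot be told apart where they overlap.

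**Figure D4:**
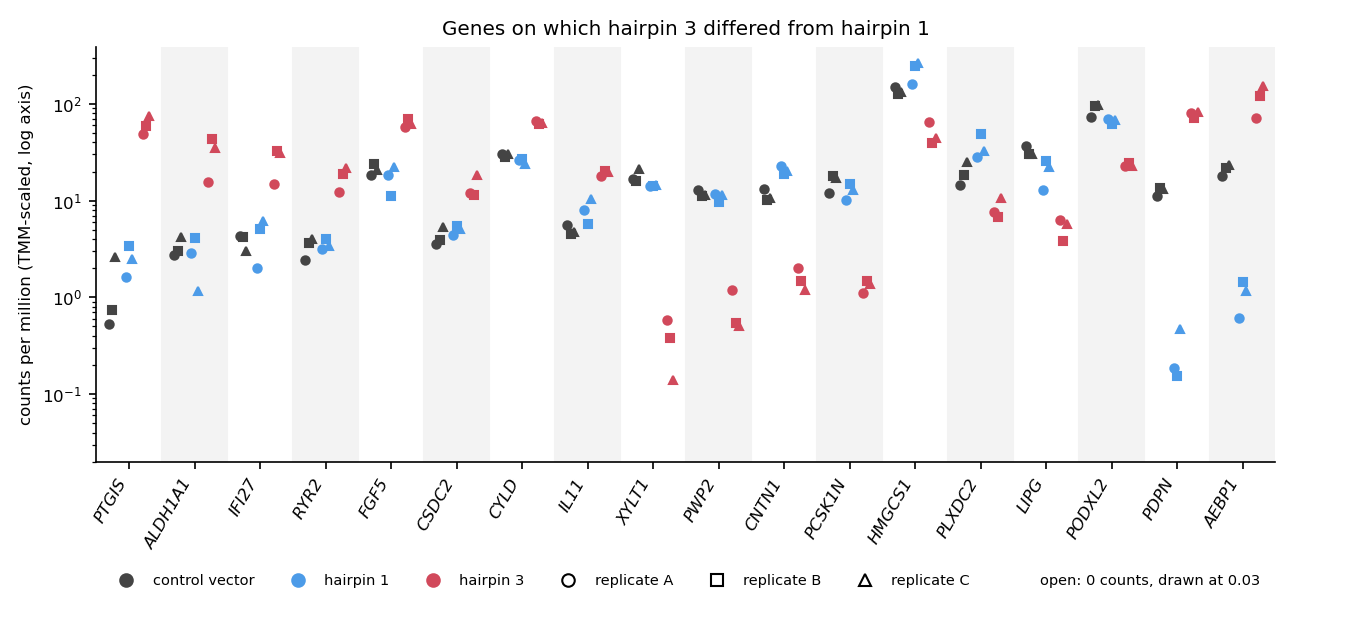
Level of 18 genes in each of the 9 libraries in CPM (y axis, log scale), with control in grey, hairpin 1 in blue, hairpin 3 in red and the replicate letter by shape. From PTGIS to IL11 the hairpin 3 libraries lie above both other groups, from XYLT1 to PODXL2 below both, and in PDPN and AEBP1 hairpin 3 lies above control and hairpin 1 below it.

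Few genes of sterol synthesis passed the thresholds. Of 26 genes of lipid and sterol synthesis, 3 were called lower and 0 higher with hairpin 3, around a median of -0.56 on the log2 scale (-0.01 with hairpin 1). The 3 calls are 11.5%, below the 15.3% of all tested genes. At an unadjusted p-value under 0.05, 19 were lower and 1 higher, beside at least 5536 of all 15975 tested genes in either direction. In the direct comparison of the hairpins 2 of the 26 were called lower and 0 higher, against 1.72% and 2.22% of all tested genes. HMGCS1, which makes HMG-CoA for the mevalonate pathway, was at 148, 128 and 134 CPM in control libraries A, B and C and at 65.6, 39.6 and 44.8 CPM with hairpin 3. With hairpin 1 it was at 160, 246 and 266 CPM, above control, and the difference between the hairpins was -2.16 on the log2 scale (edgeR adjusted p-value 2.6e-05). SQLE (log2 -0.85), FDFT1 (-0.83) and LSS (-0.58), other steps of the pathway, stayed under the fold limit with hairpin 3, and SCD, a fatty acid desaturase, lay at the limit (-0.998) and was called with the letter as a block (-1.02). DHCR7, a late sterol reductase, was called lower (-1.12), a call lost without hairpin 3 B (-0.997) and after removal of the median of 50 neighbouring genes (-0.82). PPARG, a nuclear receptor of lipid metabolism, was at 33.8 to 39.7 CPM in control and 4.93 to 5.24 CPM with hairpin 3 (log2 -2.88). The median of the 50 neighbours of HMGCS1 on chromosome 5 was -0.19 with hairpin 3 and 0.51 with hairpin 1, and its part in the difference was not tested.

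Several antioxidant genes that were high with hairpin 1 stayed near control with hairpin 3. Of 29 redox genes and NRF2 targets, 1 was called higher and 0 lower against control with hairpin 3, with a median log2 fold change of -0.02 (0.0523 without control C, -0.0519 without hairpin 3 C and 0.137 without the A libraries). The 1 call against control is 3.45%, below the 15.3% of all tested genes. In the direct comparison 7 were called lower and 1 higher, against 1.72% and 2.22% of all tested genes, with a median difference of -0.72. NQO1, a quinone reductase, was at 333, 320 and 399 CPM in control libraries A, B and C, at 319, 259 and 330 CPM with hairpin 3 and at 626, 920.1 and 1076 CPM with hairpin 1. AKR1C3, an aldo-keto reductase, was at 4.75 to 6.79 CPM in control, 2.59 to 8.19 CPM with hairpin 3 and 25.4 to 70.3 CPM with hairpin 1. Hairpin 3 overlapped control for both genes and lay below every hairpin 1 library (log2 difference -1.53 and -3.13, edgeR adjusted p-values 0.000114 and 0.000163). AKR1C1, AKR1C2 and AKR1C3 are close paralogs, so their split is uncertain. FTH1, a ferritin chain, gave a difference between the hairpins of -1.27 on the log2 scale, and SOD2 of -1.21, which was -0.65 without hairpin 1 B. SOD2, a mitochondrial superoxide dismutase, was the member called higher against control with hairpin 3 (log2 1.31).

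Whole chromosomes shifted with hairpin 3, and this bears on small changes of single genes. The shift of a chromosome in a library was taken as the median log2 level of its genes, from the mean of the 6 libraries, less that of all other genes, over 9696 genes of at least 10 CPM. Chromosome 9, with 411 genes, was at -0.128, -0.125 and -0.118 in control libraries A, B and C and at 0.0663, 0.154 and 0.174 with hairpin 3, a difference of 0.255. Chromosome 12, with 528 genes, was at -0.106, -0.128 and -0.143 in control and at 0.0964, 0.133 and 0.163 with hairpin 3, a difference of 0.256. The groups did not overlap on either chromosome, and the two-sided exact permutation test gave p = 0.1 for each, the smallest value that 3 against 3 libraries allow. Chromosomes 5, 8, 11 and 21 gave the same p-value in this test. Since 9 and 12 were chosen with earlier results of these data known, the test adds no support, and the values are a description. Within the letters A, B and C the difference for chromosome 9 was 0.195, 0.279 and 0.293. Fitted changes were positive for 75.7% of the genes on chromosome 9 and 47.0% elsewhere, and for 72.5% on chromosome 12 and 46.8% elsewhere.

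Of 23 chromosomes compared, hairpin 3 libraries lay above all controls on 9, 12 and 21 (difference 0.132) and below them on 5 (-0.126), 8 (-0.236) and 11 (-0.162), and overlapped on the other 17. These shifts were not all particular to hairpin 3. Fitted medians of hairpin 1 against control went the same way on 8 (-0.393), 11 (-0.134) and 21 (0.166). They were 0.0145 on 9, 0.0667 on 12 and 0.0842 on 5. Against hairpin 1, larger shifts lay elsewhere: the fitted median was 0.431 higher on chromosome 4 and 0.36 higher on chromosome 20 with hairpin 3, where hairpin 1 was -0.412 and -0.341 against control. FGF5 lies on chromosome 4 and PTGIS on chromosome 20. Fitted medians were 0.235 higher on chromosome 9 and 0.181 higher on chromosome 12 than with hairpin 1, and none of these differences was tested. In 184 windows of 50 neighbouring genes, all 8 windows of chromosome 9 had a positive median (0.102 to 0.306), and on chromosome 12 the windows were at 0.122 to 0.353 except 1 at -0.03. The lowest window of the genome, at -0.449, lay on chromosome 11 (66337333 to 70384403), and the window that holds MPZL3 was at -0.328. The next lowest, at -0.337, lay on chromosome 19 (51879872 to 55071291), where hairpin 1 was at -0.416. Changes in gene dosage and in regulation cannot be told apart from RNA alone.

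**Figure D5:**
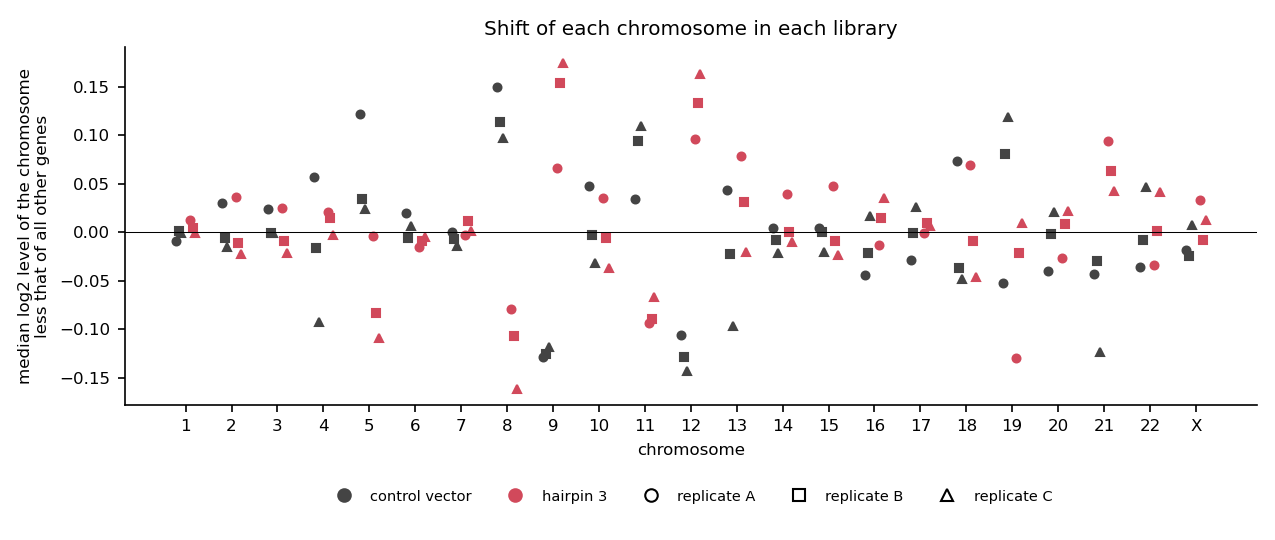
Shift of each chromosome in the 6 libraries (y axis, median log2 level of its genes less that of all other genes) for chromosomes 1 to 22 and X (x axis), with control in grey, hairpin 3 in red and the replicate letter by shape. Chromosomes 9 and 12 stand out, with hairpin 3 above 0.06 and control below -0.1 in every library, and chromosome 8 shows the opposite order.

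Genes on chromosomes 9 and 12 are given beside the shift. On chromosome 9, RPL7A (log2 0.37), SET (0.36), RPS6 (0.25) and TUBB4B (-0.01) were not called, and TLN1, COL5A1, NCS1 and ABL1 were called higher with log2 fold changes of 1.19, 2.85, 1.04 and 1.43. With the median of 50 neighbouring genes removed, TLN1 (0.908) and NCS1 (0.763) were no longer called. On chromosome 12, 106 genes (12.4%) were called higher and 55 lower, against 7.46% and 7.83% of all tested genes, and on chromosome 9, 65 (9.97%) higher and 42 lower. KRT8, KRT18, KRT81 and GPRC5A lie on chromosome 12 and were called lower all the same, KRT81 from 1658 to 2724 CPM in control to 65.4 to 98.1 CPM with hairpin 3. Leaving out chromosomes 5, 8, 9, 11, 12 and 21, 1795 of 12136 tested genes (14.8%) were called, 867 higher and 928 lower. With the median of the 50 neighbours of each gene removed, 2418 genes were called in place of 2443. Of the 68 lower genes of the set apart from hairpin 1, 17 (25%) lay on chromosome 5, which holds 749 (4.69%) of the tested genes. The windows from 196871 to 64768685 on chromosome 5 had medians of -0.273 and -0.231 with hairpin 3. With hairpin 1 they were at 0.441 and 0.329 against control, and their part in the direct calls was not tested. Of the 88 higher genes of the set, 5 and 8 lay on chromosomes 9 and 12, which hold 652 and 857 of the 15975 tested genes.

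The 7 bases ATCAATA of the hairpin 3 site were also looked for in the longest annotated 3′ UTR of each tested gene, on the strand of the message only. They occurred in 1536 of 13155 tested genes with such a UTR (11.7%), whose median length was 1648 bases. They occurred in 112 of 1042 genes called lower against control (10.7%) and 123 of 969 called higher (12.7%). In the set apart from hairpin 1, 9 of 56 lower genes (16.1%) held them and 4 of 69 higher genes (5.80%). These shares are a description, a match of 7 letters is not a target site, and the part of such matches in the changes was not tested.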

How the data were processed

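Messenger RNA of OVCA433 cells was sequenced from poly(A)-selected, non-directional libraries. The values used are raw read counts per gene, which the authors deposited as 1 table after alignment (HISAT2 2.0.5) and counting (featureCounts 1.5.0-p3, both per the submitters' processing notes) on hg38. No normalization had been applied. Reads carried no strand, so overlapping and antisense genes cannot be separated. All 15975 tested gene identifiers were found in GENCODE 29, and 93.3% had the same coordinates there.

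Genes were filtered with filterByExpr (minimum count 10, minimum total 15) for 3 groups. Counts were scaled by TMM and tested with edgeR 4.0.16 (glmQLFit, glmQLFTest) in R 4.3.3 in a model of 3 groups over all 9 libraries, with Benjamini-Hochberg adjustment. The biological coefficient of variation was 13.06%. The study pooled both hairpins and used DESeq2, which is an alternative here (version 1.42.0). CPM values are TMM-scaled. A gene at 0 in a group was given a bound computed against 3 counts per library, and a gene with few reads a ratio with an exact 95% counting interval. Bounds and intervals cover counting error only, since PCR copies were not separated by molecular identifiers. Statistics were tested on simulated data.

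Libraries sharing a letter deviated together from their group means, least clearly for B. The correlations were 0.624, 0.321 and 0.526 for A, B and C between control and hairpin 3 and 0.655, 0.119 and 0.531 between the hairpins. Hairpin 1 B correlated more with hairpin 3 C (0.276) than with hairpin 3 B, so the letters pair the libraries only in part. The letter as a block was therefore tried beside the fit without it. Other alternatives were the filter, the scaling, the DESeq2 Wald test, each library left out in turn, the thresholds, fewer groups, protein-coding genes alone, thinned counts and removal of the median of 50 neighbouring genes.

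The comparison, chromosomes 9 and 12, the 31 gene lists, the markers and the rule for named genes were chosen with earlier results of these data known. The rule named MPZL3 and the genes the study measured as RNA (LMNB1, VIM, IL1A, CDH2, IL6 and CCND1). It added the 8 largest rises and 8 largest falls among called protein-coding genes of at least 10 CPM, and the 8 largest differences in each direction among genes called with hairpin 3 and apart from hairpin 1. In each list it took up to 4 called members of largest change and the 2 most abundant. On chromosomes 9 and 12 it took the 4 most abundant protein-coding and the 4 most abundant called genes, and near MPZL3 all genes within 500 kb. Other genes in the text were chosen after their values were seen, and some genes are not reported here.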

Additional observations from a re-analysis of the deposited data

Results flagged for a closer look

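For 6 genes with at least 10 CPM in a group, hairpin 3 and hairpin 1 moved the level past both thresholds in opposite directions from the same controls, and the direct comparison of the hairpins was called. They belong to 30 such genes, 17 higher and 13 lower with hairpin 3, and they were chosen after their values were seen. Of the 30, 6 lie on chromosome X, which holds 524 of the 15975 tested genes. The log2 difference between the hairpins was 11.42 for TMEM246, whose means in control, hairpin 3 and hairpin 1 were 4.61, 16.8 and 0 CPM. PDPN, the podoplanin gene of lymphatic and invasive cells, differed by 8.10, with means of 12.6, 78.1 and 0.27 CPM. AEBP1, a collagen-binding protein, differed by 6.76, with means of 21.01, 115 and 1.06 CPM. FGF13 differed by 6.59 (1.96, 26.0 and 0.264 CPM), FAM133A by 4.97 (1.80, 11.9 and 0.373 CPM) and FAM155B by -8.92 (5.60, 0.0379 and 19.9 CPM). Fitted differences of genes at or near 0 in a group depend on the prior count.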

How the results depend on the processing

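The counts of called genes were 2443 for hairpin 3 against control, 628 for hairpin 3 against hairpin 1, 2605 for hairpin 1 against control and 156 for the set apart from hairpin 1. A fold threshold inside the test moved them to 1481, 206, 1539 and 63, since it asks for more evidence at the limit, and dropping the fold threshold to 5536, 1857, 6032 and 443. With the replicate block they were 2515, 754, 2675 and 175, within 1.5 times of the reported counts, and beside IL6 and SCD no printed gene changed its call under the block. With each library left out in turn they were 2333 to 2590, 515 to 711, 2462 to 2780 and 126 to 176. The DESeq2 Wald test gave 2425, 655, 2581 and 159, no filter 2844, 811, 3097 and 197 (there the estimated prior degrees of freedom were infinite, so a gene's own spread was not used), and the libraries without replicate A 2607, 792, 2799 and 198. The shifts of chromosomes 9 and 12 stayed at 0.219 to 0.292 and 0.228 to 0.287 under the alternatives run. Among 233 gene values run under the alternatives, 33 lost their call with the fold threshold inside the test. No called gene changed direction, but genes near 0 that were not called did: without 1 library, B2M ranged from -0.1 to 0.201, MKI67 from -0.137 to 0.258, FOXA2 from -0.203 to 0.09, TUBB4B from -0.063 to 0.021 and AKR1C3 from -0.384 to 0.31. THBS1 stayed negative without 1 library (-0.074 to -0.017). Removal of the median of 50 neighbours put CTNNA1 at 0.14, LMNB1 at 0.061, THBS1 at 0.026 and AKR1C3 at 0.165, and without replicate A CTNNA1 was at 0.009, FOXA2 at 0.015, THBS1 at 0.013, TUBB4B at 0.034 and AKR1C3 at 0.192. TUBB4B was at 0.001 among protein-coding genes alone and AKR1C3 at 0.037 with thinned counts. Of the medians of the lists under an alternative, 625 moved by less than the spread between hairpin 3 libraries and 26 by more. The sources used here do not say whether the letters mark separate transductions, so the p-values measure the spread between these libraries, which may be technical.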
